A study of Mus musculus with 16 samples.

Results

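The genes described here were 9 genes of lung surfactant and of airway secretion, namely Sftpa1, Sftpb, Sftpc, Sftpd, Abca3, Napsa, Lpcat1, Scgb1a1 and Scgb3a2. They were chosen by symbol, and each matched 1 of the 55385 genes of the count table. Gene expression was measured by short-read RNA-Seq in 8 tissues of male C57BL/6 mice, which were acquired at 12 weeks of age and kept on a chow diet. Fed mice had free access to food and fasting mice went without it for 24 h. Equal parts of a tissue from the 3 mice of each group were combined into 1 library, so there were 16 libraries, 8 of them from fed mice, and no value has a replicate error. The tissues were lung, kidney, spleen, heart, liver, muscle, white adipose and brown adipose. The question addressed was how fasting changed these genes in lung, and at what level they were found in the other 7 tissues.

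Surfactant is a film of phospholipid and protein that lowers surface tension in the alveoli, and alveolar type II cells make it. Its small hydrophobic proteins SP-B and SP-C spread the lipid at the air surface, whereas the collectins SP-A and SP-D bind sugars on microbes and take part in innate defence and in the turnover of the film. Club cells of the bronchioles secrete the secretoglobins, small dimeric proteins of the airway lining.

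Promoter sequences are shown for genes found almost only in lung and for genes found in many tissues. RefSeq (GRCm38.p6) gave a window from 250 bases before to 50 bases after the gene's start for 4 of the 9 genes, 2 of each kind. Capitals mark exact matches, on either strand, to 4 short motifs. The motif CTCAAG is a core bound by the lung and thyroid factor NKX2-1. Forkhead factors, which also act in lung epithelium, bind cores such as TGTTTAC. A close variant of that forkhead core, which was searched as well, reads TGTTTGC. The TATA box, where transcription of many tissue-restricted genes is set up, was searched as TATAAA. The windows lie at chr6:72304360-72304659 (Sftpb), chr14:41131538-41131837 (Sftpa1), chr17:24351773-24352072 (Abca3) and chr13:73466981-73467280 (Lpcat1), all on the plus strand.
Sftpb: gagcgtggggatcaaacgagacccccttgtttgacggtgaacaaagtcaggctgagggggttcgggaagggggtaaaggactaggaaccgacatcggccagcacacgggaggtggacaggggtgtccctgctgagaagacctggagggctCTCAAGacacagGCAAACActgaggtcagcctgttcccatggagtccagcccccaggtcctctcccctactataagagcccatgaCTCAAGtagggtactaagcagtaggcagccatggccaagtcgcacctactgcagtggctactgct
Sftpa1: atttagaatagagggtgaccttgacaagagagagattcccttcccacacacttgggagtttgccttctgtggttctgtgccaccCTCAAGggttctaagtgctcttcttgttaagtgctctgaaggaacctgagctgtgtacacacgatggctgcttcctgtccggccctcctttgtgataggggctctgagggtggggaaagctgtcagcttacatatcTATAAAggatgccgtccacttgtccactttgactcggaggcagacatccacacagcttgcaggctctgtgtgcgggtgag
Abca3: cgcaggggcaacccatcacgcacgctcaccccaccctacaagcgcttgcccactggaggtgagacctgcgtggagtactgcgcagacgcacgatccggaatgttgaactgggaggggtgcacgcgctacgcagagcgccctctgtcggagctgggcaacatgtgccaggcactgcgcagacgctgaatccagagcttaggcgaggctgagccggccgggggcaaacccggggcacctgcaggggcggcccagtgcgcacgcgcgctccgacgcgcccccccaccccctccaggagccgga
Lpcat1: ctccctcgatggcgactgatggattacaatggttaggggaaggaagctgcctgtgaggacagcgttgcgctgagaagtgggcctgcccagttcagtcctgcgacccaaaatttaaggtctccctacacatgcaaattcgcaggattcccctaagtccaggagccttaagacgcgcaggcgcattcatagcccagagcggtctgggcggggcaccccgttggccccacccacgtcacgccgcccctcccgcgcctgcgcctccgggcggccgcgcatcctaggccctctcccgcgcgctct

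The windows of Sftpb and Sftpa1 both held CTCAAG, which 15.9% of 32851 promoter windows of this length hold. In Sftpb it stood at bases -100 and -15 relative to the start, and in Sftpa1 at base -166. Sftpb also held TGTTTGC on the minus strand at base -88, a motif found in 5.07% of all windows, and Sftpa1 held TATAAA at base -30, found in 13.6%. No window held TGTTTAC (3.65% of all), TTGCGNAA, bound by C/EBP factors (0.798%), AGAACA, a half-site of the glucocorticoid receptor (19.0%), or CCAAT (37.4%). The windows of Abca3 and Lpcat1 held none of the 7 motifs, and they were richer in G and C, at 69.7% and 64% against 58.3% for Sftpb and 52% for Sftpa1. They contained 29 and 25 CpG dinucleotides, compared with 8 in Sftpb and 5 in Sftpa1 and a median of 7 over all windows. No 2 matches overlapped. A match is a description of the letters and not a bound site.

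In lung the 9 genes took 2.69% of all counts in the fed library and 2.82% in the fasting library. The totals of those libraries, 30058806 and 36069968 counts, were the basis for CPM, the count of a gene scaled by the library total, and all 16 totals lay between 14245178 and 36069968. The floor of 3 counts used here corresponds to 0.0832 to 0.211 CPM, and intervals cover counting error only. Scgb1a1, the main secretoglobin of club cells, ranked 3 of all genes in both lung libraries. Sftpc ranked 5 in both, Sftpa1 ranked 11 in fed lung and 7 in fasting lung, and Sftpb ranked 17 and 18. Per kilobase of exon, which allows levels of different genes to be compared, Scgb1a1 stood at 27560.0 CPM per kb in fed lung and Sftpc at 5643, followed by Sftpb at 1173, Sftpa1 at 1065, Scgb3a2 at 625 and Sftpd at 257. Lpcat1 at 101, Napsa at 81.1 and Abca3 at 77.9 CPM per kb were the lowest of the 9 and lay close to each other.

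The label of lung genes held for 6 of the 9. Scgb1a1, Sftpc, Sftpa1, Sftpb, Sftpd and Scgb3a2 had between 99.2% and 99.4% of the sum of their 8 tissue means in lung, and their lung mean was 341 to 523 times that of the next tissue (215 to 327 times with TMM factors). Lpcat1 was 3.98 times as high in lung as in spleen, the next tissue. Abca3 stood at a mean of 724 CPM in lung and 675 CPM in kidney, a ratio of 1.07 that turned to 0.789 with TMM factors, so the order of these tissues depends on the scaling. Napsa was highest in kidney, at a mean of 1762 CPM against 213 CPM in lung. These levels are a description, since the genes were chosen as genes of lung.

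**Figure D1:**
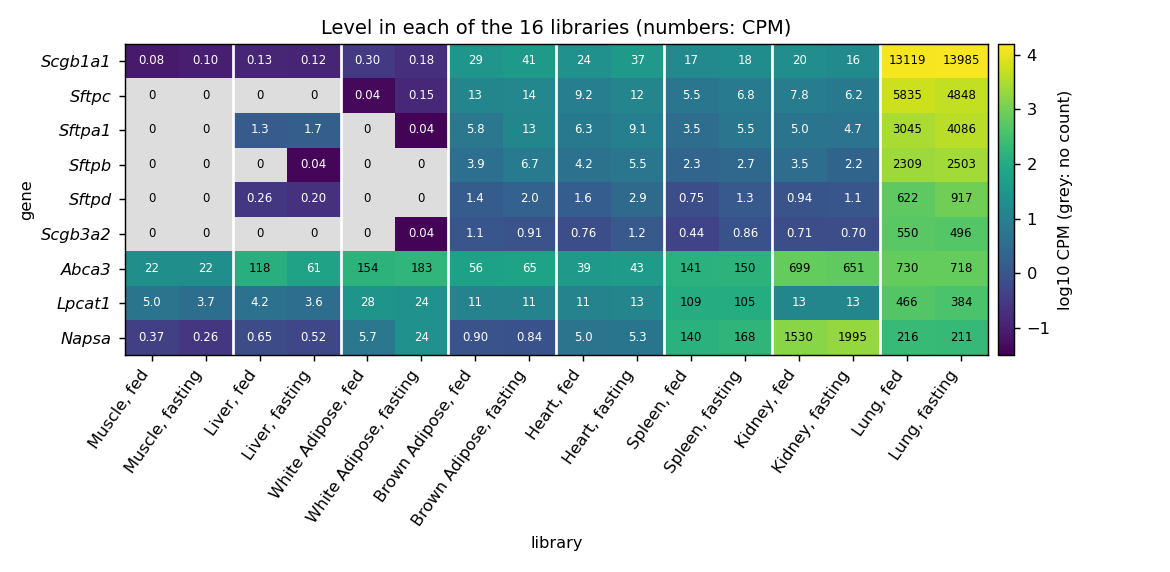
Level of the 9 genes (rows) in each of the 16 libraries (columns), coloured by log10 CPM and printed as CPM, with grey for no count. The first 6 rows are at 496 CPM or more in both lung libraries and below 41 CPM in all others, whereas Abca3, Lpcat1 and Napsa have counts in every library.

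In lung both collectin genes were higher in the fasting than in the fed library, and 1 of them passed the limit of the test. Sftpd, which encodes the collectin SP-D (ENSMUSG00000021795.10, chromosome 14, 41172214 to 41185149, minus strand), had 18703 counts or 622 CPM in the fed library and 33080 counts or 917 CPM in the fasting library. It was 1.47-fold higher in fasting (95% counting interval 1.45 to 1.5), a log2 fold change of 0.56. A gene counted as called when its log2 fold change exceeded 0.5 in either direction with an unadjusted p-value (two-sided Fisher's exact test) of less than 0.01, and Sftpd was the only one of the 9 that was called. Over all genes tested in lung, 9.18% were called in either direction and 2.68% were called higher, so 1 of 9 is close to the background. With 1 library per treatment this test compares the libraries and not the conditions. In bulk tissue, moreover, a change in the number of cells of a type and a change in RNA per cell cannot be told apart.

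Sftpa1, which encodes the collectin SP-A (ENSMUSG00000021789.14, chromosome 14, 41131782 to 41136452, plus strand), had 91538 counts or 3045 CPM in the fed and 147383 counts or 4086 CPM in the fasting library. The ratio was 1.34 (1.33 to 1.35) and the log2 fold change 0.42, under the limit of 0.5. With TMM factors, which rescale each library on the bulk of its genes, the log2 fold changes of Sftpa1 and Sftpd were 0.501 and 0.64 and both were called. With DESeq2 size factors Sftpa1 was at 0.498 and Sftpd alone was called, so the call of Sftpa1 turned on a difference at the limit itself. TMM factors also moved the share of higher genes among all called genes in lung from 29.3% to 40.1%, and DESeq2 size factors moved it to 39.7%. Both collectin genes were thus higher in the fasting lung library under each scaling.

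Both genes lie in 1 cluster on chromosome 14, 35762 bases apart and on opposite strands. Between them lies Mbl1, which encodes a mannose-binding collectin made mainly in liver. Mbl1 stood at 1.96 CPM in the fed and 3.19 CPM in the fasting lung library, a log2 fold change of 0.70 that was called. Mat1a, 7370 bases from Sftpa1 and highest in liver, stood at 13.3 and 15.4 CPM in lung and was not called. Dydc1, 39585 bases away, was at 1.20 and 1.75 CPM, with a log2 fold change of 0.54 that was not called.

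The genes of the hydrophobic proteins did not pass the limit. Sftpb (ENSMUSG00000056370.15, chromosome 6, 72304610 to 72314371, plus strand) had 69412 counts or 2309 CPM in fed and 90279 counts or 2503 CPM in fasting lung. The ratio was 1.08 (1.07 to 1.10), with a log2 fold change of 0.12. Sftpc (ENSMUSG00000022097.4, chromosome 14, 70520949 to 70524081, minus strand) had 175394 counts or 5835 CPM in fed and 174882 counts or 4848 CPM in fasting lung, a log2 fold change of -0.27. Its ratio of 0.831 (0.825 to 0.836) lay below 1 by more than the counting error, while those of the collectins and Sftpb lay above 1. Between the fed and the fasting library, the genes of the 4 surfactant proteins did not share 1 direction, although Sftpb and Sftpc were not called. With 1 library per treatment this describes the libraries and not the conditions. Sftpa1 made up 34.3% of the summed counts of Sftpa1 and Sftpc in the fed library (exact 95% interval 34.1 to 34.5%) and 45.7% in the fasting library (45.6 to 45.9%).

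Among the genes that process and store surfactant, Abca3, the transporter that loads phospholipid into lamellar bodies (ENSMUSG00000024130.16, chromosome 17, 24351950 to 24410201, plus strand), had 21951 counts or 730 CPM in fed and 25912 counts or 718 CPM in fasting lung. Napsa, the protease that trims the precursors of SP-B and SP-C (ENSMUSG00000002204.9, chromosome 7, 44572380 to 44586862, plus strand), stood at 216 and 211 CPM. Their ratios of 0.984 (0.966 to 1.0) and 0.978 (0.946 to 1.01) were within counting error of 1, and their log2 fold changes of -0.02 and -0.03 turned to 0.05 and 0.04 with TMM factors. Lpcat1, which remodels phosphatidylcholine into its disaturated form (ENSMUSG00000021608.15, chromosome 13, 73467197 to 73516422, plus strand), stood at 466 CPM in fed and 385 CPM in fasting lung. This was the lowest ratio of the 9, at 0.825 (0.806 to 0.845), and was not called at a log2 fold change of -0.28. Abca3 overlaps D330041H03Rik on the opposite strand, at 7.32 and 7.21 CPM in lung, and Gm25618, without a count in lung. Napsa overlaps Gm15396 on the opposite strand, with at most 0.0277 CPM in lung. The libraries were strand-specific, but the strand setting used for counting was not given in the sources used here.

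Neither secretoglobin gene was called in lung. Scgb1a1 (ENSMUSG00000024653.2, chromosome 19, 9083636 to 9087958, minus strand) had 394328 counts or 13119 CPM in fed and 504441 counts or 13985 CPM in fasting lung, a ratio of 1.07 (1.06 to 1.07). Scgb3a2 (ENSMUSG00000038791.14, chromosome 18), another secretoglobin of the airway, stood at 550 and 496 CPM, with a ratio of 0.901 (0.882 to 0.920). Their log2 fold changes were 0.09 and -0.15. Over all 9 genes, 4 were higher and 5 lower in fasting, with a median log2 fold change of -0.02, compared with a median of -0.10 over all 31101 genes tested in lung and -0.09 over the 17575 of them at 1 CPM or more in a lung library.

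**Figure D2:**
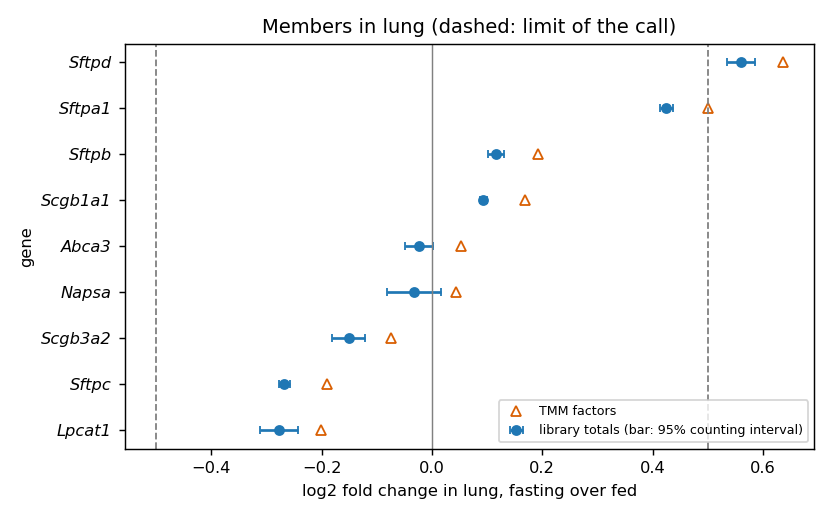
Log2 fold change (fasting over fed) of the 9 genes in lung on library totals (circles, with 95% counting intervals) and with TMM factors (triangles), with dashed lines at the limit of 0.5. Sftpd at 0.56 and Sftpa1 at 0.42 stand above the other genes, and each triangle lies to the right of its circle.

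The size of the change that would be called depends on how much lung libraries of 1 treatment vary, which these data cannot show. If libraries of 1 treatment were taken to vary with a coefficient of 0.2, edgeR's exact test gave a p-value of 0.174 for Sftpd and 0.302 for Sftpa1, and none of the 9 genes was called. Over all genes, 584 were called in lung by that test and 2854 by Fisher's exact test.

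Of 75 genes named Sftp, Sfta or Scgb in the table, 10 had 3 counts or more in a library, the 6 described here and 4 others. Scgb3a1, a secretoglobin of the upper airways, had 3494 counts or 116 CPM in fed and 9380 counts or 260 CPM in fasting lung. It was 2.24-fold higher (2.15 to 2.33), a log2 fold change of 1.16 that was called. Sfta3-ps, a pseudogene of a surfactant-associated protein, stood at 210 and 199 CPM, and Sfta2, a small secreted protein gene, at 29.8 and 31.8 CPM, and neither was called. Scgb1c1 was at 6.22 and 5.02 CPM in lung and higher in heart, at 9.76 and 8.32 CPM. Sfta2 had 13 counts in fasting white adipose and none in fed white adipose.

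Of the expressed genes near Sftpb, Sftpc, Abca3, Napsa and Scgb1a1, 1 was called in lung, where 9.18% of all tested genes were called. Next to Sftpc, Bmp1, which encodes a procollagen protease, stood at 87.7 and 88.5 CPM, and Lgi3, a secreted protein gene that was also highest in lung, at 162 and 168 CPM. Reep4 and Hr, further from Sftpc, were at 18.5 and 18.4 CPM and at 16.7 and 13.1 CPM. Near Sftpb, Usp39, 0610030E20Rik, Tmem150a and Rnf181 had log2 fold changes between -0.35 and 0.07, and next to Scgb1a1, Ahnak and Asrgl1 had 0.16 and 0.18. Around Abca3 the log2 fold changes of Abca17, Rnps1, Eci1, Dnase1l2 and E4f1 lay between -0.22 and 0.07. Around Napsa, those of Mybpc2, Pold1, Nr1h2 and Myh14 lay between -0.44 and 0.35, and Spib, a transcription factor gene of B cells and dendritic cells that was highest in spleen, was called lower, with 21.1 CPM in fed and 9.48 CPM in fasting lung.

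Surfactant lipid is made from fatty acids, and of 31 genes of lipid synthesis, Lpcat1 among them, 8 were called lower and 2 higher in fasting lung, with a median log2 fold change of -0.14. For comparison, 6.49% of all tested genes were called lower and 2.68% higher, with a median of -0.10. Of those at 1 CPM or more, 10.1% were called lower and 4.23% higher. Scd1, which desaturates fatty acids, fell from 2690 to 905 CPM (log2 fold change -1.57), and Fasn, the fatty acid synthase, fell from 1101 to 692 CPM (-0.67). Scd2 stood at 937 and 857 CPM and was not called. Lpin2, a phosphatidate phosphatase, rose from 262 to 560 CPM (1.10), and its relative Lpin1 was the other gene called higher.

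Of 22 genes for processing, storage and recycling of surfactant, Abca3 and Napsa among them, 2 were called higher, and the median was 0.02. Prdx6, a peroxiredoxin that also acts as a phospholipase on surfactant lipid, rose from 711 to 1211 CPM (0.77), and the other was Stx3. Slc34a2, the phosphate transporter of type II cells, was at 2687 and 2769 CPM, and Adgrf5, a receptor that controls surfactant pool size, was at 2270 and 2958 CPM (0.38, not called). Among 13 genes of clearance by macrophages, 2 were called higher and 2 lower, with a median of 0.22, where 2.68% of all tested genes were called higher and 6.49% lower. Lpl, the lipoprotein lipase, rose from 151 to 307 CPM (1.02), while Abca1 at 245 and 285 CPM and Abcg1 at 165 and 173 CPM, both lipid exporters, were not called. The clearance list summed to 840 CPM in fed lung and 8090 CPM in fed white adipose, so it is not restricted to lung. Of 22 transcription factors of lung epithelium, 2 were called higher, namely Hif3a, which rose from 3.23 to 25.7 CPM (2.99), and Cebpd. The 3 with the highest level, Nfib, Nr3c1 and Stat3, had log2 fold changes of -0.14, -0.16 and 0.03.

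Other markers of the cells that make these proteins were read in the same way. Of 20 other markers of alveolar type II cells, none was called higher and 3 were called lower, with a median of -0.20, where 6.49% of all tested genes and 10.1% of those at 1 CPM or more were called lower. Hc, the complement component C5, fell from 939 to 627 CPM (-0.58), and Cxcl15, a chemokine of lung, was at 1310 and 951 CPM and not called. Of 25 other markers of club cells, 12 were called higher and 1 lower, with a median of 0.43, against 2.68% called higher over all genes and 4.23% among those at 1 CPM or more. Bpifa1, a secreted airway protein, rose from 212 to 861 CPM (2.02), Bpifb1 of the same family from 78.1 to 192 CPM (1.30), and Reg3g, an antimicrobial lectin, from 31.0 to 64.3 CPM (1.05). Called higher as well were the cytochrome gene Cyp2a5, from 46.8 to 119 CPM (1.34), the cytochrome gene Cyp2b10, from 215 to 482 CPM (1.17), and Fmo2, a flavin monooxygenase, from 870 to 1955 CPM (1.17). Cbr2 at 2045 and 2568 CPM and Cyp2f2, another cytochrome of club cells, at 1795 and 1799 CPM were not called, like Scgb1a1 itself.

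Markers of other cells present in a lung sample are given beside these results, and their counts can be read against the 2.68% of all tested genes called higher and 6.49% called lower in lung (4.23% and 10.1% of those at 1 CPM or more). Of 14 alveolar type I markers 2 were called higher and 1 lower (median 0.05), with Ager, Sec14l3 and Clic5 not called at log2 fold changes of 0.07, 0.19 and 0.03. No marker of 14 for ciliated cells was called (median 0.08), and Tppp3, Dnah5 and Foxj1 had log2 fold changes of -0.45, 0.03 and 0.38. All 13 alveolar macrophage markers were higher in fasting and 3 were called (median 0.41), among them Chil3, from 361 to 626 CPM (0.79), and Fabp4, from 28.4 to 60.8 CPM (1.10). Mrc1 was at 120 and 151 CPM and not called. The macrophage list summed to 884 CPM in fed lung and 5977 CPM in fed white adipose, so it is not restricted to lung. Of 13 endothelial markers 1 was called higher, Hpgd at 404 and 722 CPM, and 2 lower, among them Aplnr at 112 and 54.2 CPM (median 0.03, with Cdh5 and Pecam1 not called at -0.14 and 0.06). Of 12 mesenchyme markers 2 were called lower (median -0.14), and Inmt, Limch1 and Pdgfra were not called at 0.39, 0.02 and 0.39.

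Markers of heart muscle, B cells and blood were measured in the lung libraries as well. All 8 cardiomyocyte markers were called lower in fasting lung, against 6.49% of all tested genes (median -1.0), their sum fell from 1234 to 614 CPM, and Nppa, the atrial natriuretic peptide, fell from 198 to 27.4 CPM. Myh6, Actc1, Sln, Myl7 and Myl4 had log2 fold changes between -1.31 and -0.70. All 6 B cell markers were called lower (median -0.95), their sum fell from 404 to 210 CPM, and Ighm, Ighd and Ms4a1 had log2 fold changes between -1.11 and -0.89. The sum of 5 red blood cell markers, led by Hbb-bs, Hba-a1 and Hba-a2, was 3309 and 3267 CPM with none called (median -0.00473). The 6 cartilage and thyroid markers, Tg, Acan and Col2a1 highest among them, summed to 5.09 and 4.60 CPM with none called (median -0.08). The part of these cells in the values of the 9 genes was not tested.

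**Figure D3:**
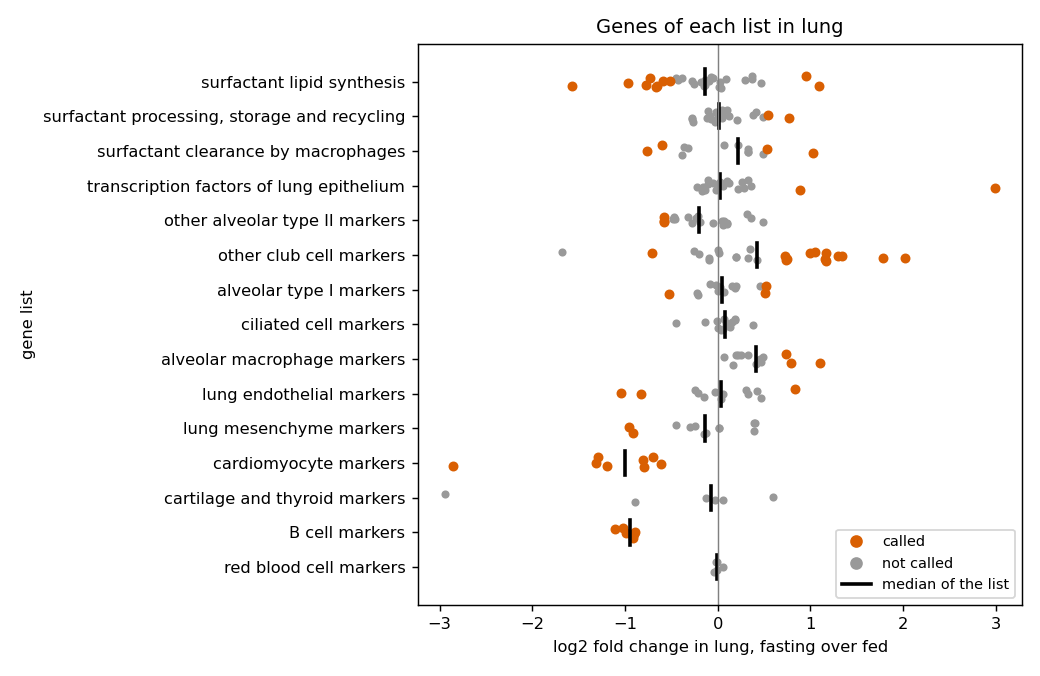
Log2 fold change (fasting over fed) in lung for the genes of 15 lists, with called genes in orange, others in grey and the median of each list as a black bar. The point furthest to the right is Hif3a at 2.99, 12 of 25 club cell markers were called higher, and all 8 cardiomyocyte and all 6 B cell markers lie to the left.

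Outside lung, Abca3, Napsa and Lpcat1 had counts in every library. Abca3 was at 699 CPM in fed and 651 CPM in fasting kidney, 154 and 183 CPM in white adipose, 141 and 150 CPM in spleen, and 118 and 61.1 CPM in liver. It was lower in brown adipose (56.4 and 65.2 CPM), heart (38.7 and 43.1 CPM) and muscle (21.5 and 21.9 CPM). The liver value was the only one called, with 2712 counts in fed and 1524 in fasting liver, a ratio of 0.519 (0.487 to 0.552) and a log2 fold change of -0.95 in Fisher's exact test (p-value 1.16e-97). In liver 14.0% of all genes tested were called.

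Napsa stood at 1530 CPM in fed and 1995 CPM in fasting kidney, a ratio of 1.30 (1.29 to 1.32) that was not called at a log2 fold change of 0.38. Spleen had 140 and 168 CPM, and heart 5.0 and 5.31 CPM. Brown adipose, liver and muscle were all below 1 CPM. In white adipose Napsa was the only one of the 9 genes that was called, with 132 counts or 5.67 CPM in fed and 653 counts or 23.8 CPM in fasting mice, a ratio of 4.2 (3.48 to 5.10) and a log2 fold change of 2.07 (Fisher's exact test, p-value 2.08e-66). In white adipose 19.1% of all genes tested were called. The sum of 6 B cell markers there was 348 CPM in fed and 85.7 CPM in fasting mice, with 2 of the 6 called lower and a median log2 fold change of -0.19. Ciliated cell markers rose in the same libraries, with 13 of 14 called higher, a median log2 fold change of 5.83 and sums of 62.0 CPM in fed and 673 CPM in fasting mice. The fed and fasting white adipose libraries differed in these cell markers as well, and their part in the Napsa value was not tested.

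Lpcat1 was at 109 CPM in fed and 105 CPM in fasting spleen and at 27.7 and 23.6 CPM in white adipose. Kidney, heart and brown adipose lay between 10.9 and 13.1 CPM, with intervals that overlapped in each treatment, and muscle and liver between 3.65 and 4.98 CPM. It was lower in fasting in 7 of the 8 tissues, with heart as the exception, and called in none.

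**Figure D4:**
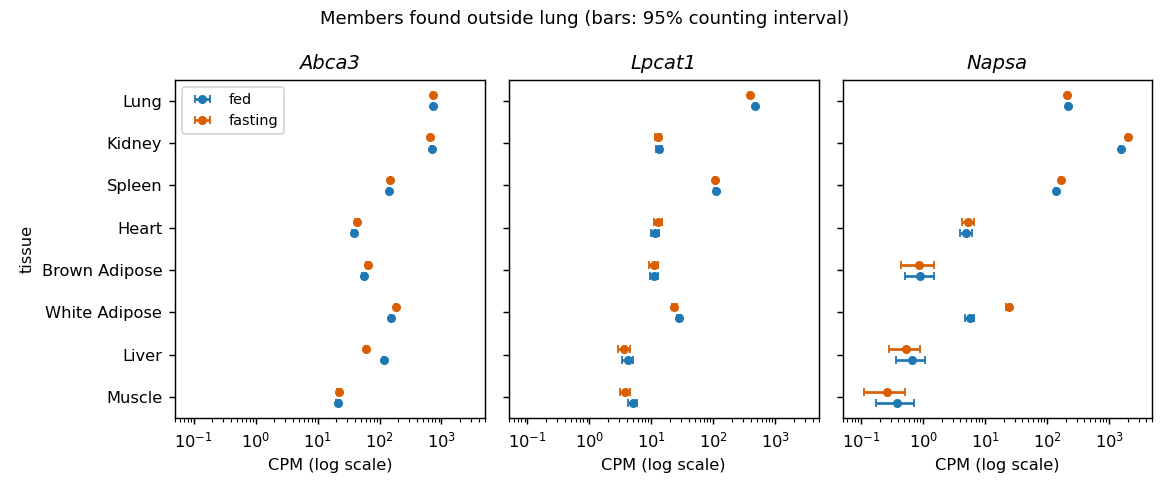
CPM (log axis) of Abca3, Lpcat1 and Napsa in the fed (blue) and fasting (orange) library of each tissue, with 95% counting intervals. Fed and fasting points lie close together except for Abca3 in liver (118 and 61.1 CPM) and Napsa in white adipose (5.67 and 23.8 CPM).

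The 6 genes found almost only in lung fell into 2 patterns in the other tissues. In muscle, liver and white adipose, 21 of their 36 values were counts of 0, and the highest was 42. In the 8 libraries of brown adipose, heart, spleen and kidney, each of the 6 genes had at least 10 counts. Scgb1a1, for example, had 483 and 581 counts in fed and fasting brown adipose, 419 and 562 in heart, 385 and 509 in spleen and 440 and 424 in kidney, but at most 7 in any library of muscle, liver or white adipose. Sftpc had 125 to 215 counts in the former libraries and 0 to 4 in the latter.

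Set against the lung library of the same treatment, those counts were a similar but not equal share of lung. Summed over the 6 genes, brown adipose had 0.118% of the lung counts in fed (95% counting interval 0.11 to 0.126%) and 0.114% in fasting mice (0.107 to 0.121%). Heart had 0.105% and 0.107%, and spleen 0.0872% (0.0807 to 0.0941%) and 0.102% (0.0957 to 0.109%). Kidney had 0.11% (0.103 to 0.118%) and 0.0835% (0.0778 to 0.0894%). The intervals of fed and fasting did not overlap in spleen and kidney. Single genes ranged from 0.0604% to 0.150% with a median of 0.105%, and in 45 of the 48 combinations of gene and library the gene's counting interval held the pooled share of its library. The pooled share includes the gene itself, and the intervals were wide for genes of few counts (Scgb3a2 in fed spleen, 10 counts, 0.029 to 0.111%). Within these limits the 6 genes stood in about the same proportions to each other as in lung. The coefficient of variation over all 48 shares, which includes differences between libraries, was 18.7% against the lung library of the same treatment. It was 37.7% against that of the other treatment, although shares of the other treatment also carry the difference in depth between the lung libraries.

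Muscle had 2.61e-04% and 3.10e-04% of the lung counts of these genes, and white adipose 0.00104% and 0.00114%. Liver was the exception in kind. Sftpa1 had 31 counts in fed and 42 in fasting liver, and Sftpd had 6 and 5, while Sftpc and Scgb3a2 had none and Scgb1a1 had 3 in each. At the share of the other 4 genes, liver would hold 0.419 and 0.749 counts of Sftpa1. The source of the counts in liver was not tested.

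**Figure D5:**
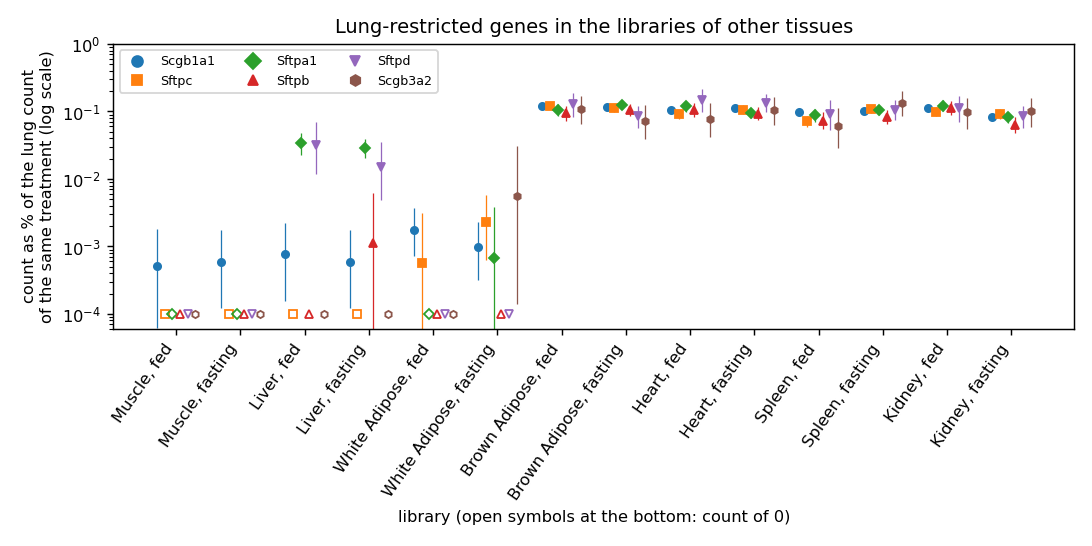
Counts of the 6 lung-restricted genes in the libraries of the 7 other tissues, as percent of the lung count of the same treatment (log axis) with 95% counting intervals, and open symbols at the bottom for a count of 0. In brown adipose, heart, spleen and kidney all 6 genes lie between 0.0604% and 0.150%, and in muscle, liver and white adipose they lie lower, with Sftpa1 and Sftpd in liver the closest at 0.0151% to 0.0339%.

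The share of Sftpa1 in the summed counts of Sftpa1 and Sftpc was higher in fasting than in fed in each of these 4 tissues, as it was in lung. It was 31.1% (26.0 to 36.6%) and 48.6% (43.5 to 53.7%) in brown adipose, 40.7% and 42.6% in heart, 39.0% and 44.8% in spleen, and 39.0% and 42.7% in kidney. The exact intervals of fed and fasting overlapped in heart, spleen and kidney and not in brown adipose.

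Several of the calls in other tissues fell on these low counts. Sftpa1 was called higher in fasting in brown adipose (97 and 186 counts, log2 fold change 1.16), heart (109 and 139 counts, 0.52) and spleen (80 and 154 counts, 0.65). Sftpb was called higher in brown adipose (65 and 95 counts, 0.77) and lower in kidney (79 and 57 counts, -0.67), and Scgb1a1 was called higher in heart (419 and 562 counts, 0.60). Over all genes tested, 13.0% were called in brown adipose, 10.1% in heart, 3.93% in spleen and 6.69% in kidney. In muscle 13.8% were called and none of the 9 genes was. The summed share of lung, given above, was higher in fasting in spleen and lower in kidney, as were the calls there. It was 0.118% and 0.114% in brown adipose and 0.105% and 0.107% in heart, where the calls were higher. A share leaves out the change in lung itself, where Sftpa1 had 91538 counts in fed and 147383 in fasting mice. At the share of Scgb1a1, Sftpc, Sftpb and Scgb3a2, Sftpa1 would have 109 and 166 counts in brown adipose, against 97 and 186. In heart it would have 92.7 and 159 against 109 and 139, and in spleen 79.7 and 149 against 80 and 154. The part of the share in the calls was not tested.

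Genes restricted to kidney had low counts in other libraries as well, examined here as a sum. The 10 genes most restricted to kidney, chosen after the values were seen among genes of at least 100 CPM there (Slc34a1, Umod, Miox and Slc5a2 among them), had 0.152% of their kidney counts in fed and 0.165% in fasting lung. In white adipose they had 0.113% and 0.197%, in heart 0.125% and 0.142%, and in spleen 0.0921% and 0.156%, but 0 to 7 counts in brown adipose, muscle and liver. At these shares Napsa would have 38.7 and 101 counts in fed and fasting white adipose, against the 132 and 653 counted. In heart it would have 43.0 and 73.0 counts against 86 and 81 counted, and in lung 52.2 and 84.9 against 6484 and 7607. In brown adipose, at the share of lung found for Scgb1a1, Sftpc, Sftpb and Scgb3a2, Napsa would have 7.72 and 8.56 counts against 15 and 12 counted. The run or lane of each library was not given in the sources used here, and the origin of these counts was not tested.

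Across all 8 tissues, edgeR's quasi-likelihood test with tissue as a block called 4.39% of 17296 genes with a p-value under 0.05 after Benjamini-Hochberg adjustment. Sftpd was the only one of the 9 genes called, with a log2 fold change of 0.57 (SE 0.12, adjusted p-value 0.0418), and it was higher in fasting in 5 of the 6 tissues where it had a count. The adjusted p-value of Sftpd lay between 0.038 and 0.237 when 1 tissue was left out, and Sftpd stayed called in 2 of those 8 fits, those without liver or white adipose. The call was also lost with DESeq2's Wald test (adjusted p-value 0.0532), and in edgeR with library totals (0.0528), without the filter on low counts (0.0501) and without the tissue block (1.0). In these fits the log2 fold change of Sftpd was 0.559, 0.517, 0.578 and 0.637. With 1 tissue left out it lay between 0.505 and 0.625. Sftpa1 had a log2 fold change of 0.56 (SE 0.15, adjusted p-value 0.0651 in edgeR) and was higher in 6 of 7 tissues, among them white adipose with 0 and 1 counts. It was called with DESeq2's Wald test (adjusted p-value 0.0104) and in edgeR without kidney (0.0493). The other 7 genes had edgeR adjusted p-values between 0.285 and 0.997. In brown adipose, heart, spleen and kidney, Sftpd had 17 to 44 counts. These were 0.752 to 1.48 times the counts at the share of lung found for Scgb1a1, Sftpc, Sftpb and Scgb3a2. For Sftpa1 the ratios were 0.872 to 1.18. The origin of these counts was not tested, and for both genes the tallies and the fit are not taken as independent support beyond lung. For the 6 lung-restricted genes this fit draws on the low counts in brown adipose, heart, spleen and kidney as well as on lung. Without those 4 tissues, a fit added after seeing the data, only 4 of the 9 genes passed the filter, Sftpd was not among them, and Sftpa1 had a log2 fold change of 0.51 with an adjusted p-value of 0.515 (edgeR). That fit called 0 of 18203 genes, with 1957 at an unadjusted p-value under 0.05.

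Among 10947 genes with a mean of 10 CPM or more in lung, the 10 whose log2(CPM + 1) followed the mean profile of the 9 genes most closely over the 16 libraries had Pearson correlations of 0.96 to 0.98. The points share libraries and depth, so the correlations are a description, and by Spearman rank correlation 0 of these 10 genes were among the closest 10. The closest was Ager, a receptor abundant on alveolar type I cells, at 1435 CPM in fed and 1505 CPM in fasting lung, followed by Sec14l3, Slc34a2, Lamp3, Cxcl15, Liph, Cldn18, Rasgef1a, Chil1 and Tex15. Lamp3, a lysosomal protein of type II cells, was at 599 and 494 CPM, Cldn18, a tight junction protein of the alveolus, at 582 and 499 CPM, and Chil1, a chitinase-like protein, at 568 and 498 CPM. Liph, a phospholipase, was the only one of the 10 called in lung, where 9.18% of all tested genes were called. It stood at 43.8 and 68.7 CPM (log2 fold change 0.65). Rasgef1a was at 120 and 116 CPM and Tex15 at 38.2 and 30.8 CPM.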

How the data were processed

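Short-read RNA-Seq of 8 tissues under 2 treatments gave 16 libraries, 1 per pool of 3 mice. The authors trimmed paired-end reads of 100 base pairs with fastp 0.23.2, mapped them with HISAT2 2.2.1.0 (GRCm38), counted them per gene with featureCounts on GENCODE release 24, and deposited these counts without normalization together with gene lengths. Symbols were matched by identifier to GENCODE release 21. The 9 genes and 15 gene lists were chosen with earlier results of these data known. Some genes are in more than 1 list.

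CPM used library totals, and fold changes were log2((CPM fasting + 0.01)/(CPM fed + 0.01)). Within a tissue, genes with a count were tested by Fisher's exact test (two-sided), as in the study's methods, and called at a size above 0.5 and an unadjusted p-value under 0.01. The fit across tissues used edgeR 4.0.16 (R 4.3.3; TMM, filterByExpr, quasi-likelihood, tissue as block, 7 residual degrees of freedom), whose tissues come from the same pools of mice. Intervals were exact at 95%. On simulated counts the lung test recovered 200 of 200 genes changed by 1.5 on the log2 scale, with 104 false calls among 29814. The fit recovered 195 of 200, with 8 false calls among 17325. That size is above the 0.56 of Sftpd in lung, and recovery of smaller changes was not tested. The 104 false calls do not give an error rate for the real lung libraries, whose variation within 1 treatment is unknown. There, an assumed coefficient of variation of 0.2 lowered the called genes from 2854 to 584. The false calls of the lung test and of the fit are not compared.

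Named genes were the 9, the 3 highest of each list plus called ones at 10 CPM or more and above 1 in log2 size, the 10 most similar in pattern, neighbours within 50 kb at 1 CPM or more in lung, and family members with 3 counts. Genes named as the only other called ones of a list (Lpin1, Stx3, Cebpd) and 4 of the 10 kidney genes were named after their values were seen. Alternatives were a pseudocount of 1, TMM, DESeq2 1.42.0 size factors and Wald test, other totals, filters, limits and assumed variation, and tissues left out. No protein sequences were used here. A few genes that the naming rule selects are not reported here.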

Additional observations from a re-analysis of the deposited data

Results flagged for a closer look

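Sftpb was called in opposite directions in 2 tissues. It was higher in fasting in brown adipose (log2 fold change 0.77, 65 and 95 counts) and lower in kidney (-0.67, 79 and 57 counts). The difference between the tissues was not tested, since each treatment has 1 library per tissue. In the same libraries the summed share of lung counts of the 6 lung-restricted genes was 0.118% and 0.114% in brown adipose and 0.11% and 0.0835% in kidney. A share leaves out the change in lung itself, where Sftpb had 69412 counts in fed and 90279 in fasting mice. The part of the share in the result was not tested.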

How the results depend on the processing

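With TMM factors 2 of the 9 genes were called, Sftpa1 in addition to Sftpd, and Abca3 (0.0531) and Napsa (0.0442) turned positive. With DESeq2 size factors they turned to 0.0503 and 0.0414, and Sftpa1 (0.498) was not called. A log2 limit of 1 left 1141 genes called in lung, an assumed coefficient of variation of 0.2 left 584 and of 0.4 left 89, in each case with 0 of the 9 genes. Across tissues, DESeq2's Wald test called 1864 genes, Sftpa1 among them, the fit without a tissue block called 1, and leaving out 1 tissue gave 156 to 721. Sftpd was no longer called in 6 of those 8 fits, lung included, and the cause was not tested. Its log2 fold change lay between 0.505 and 0.625 over the 8 fits. Without brown adipose, heart, spleen and kidney together, a fit added after seeing the data, 0 genes were called by edgeR, with 1957 at an unadjusted p-value under 0.05. Abca3 across tissues turned from -9.00e-04 to 0.0014 without a filter, and to between -0.0329 and 0.113 with 1 tissue left out. Without a tissue block Sftpc turned to -0.19 and Scgb3a2 to -0.069. By Spearman rank correlation 0 of the 10 genes closest in pattern were shared, by a pseudocount of 0.1 CPM 7 were.

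No paired analysis was possible because each tissue and treatment has 1 library, all labelled with the same number, apart from the tissue block of the fit across tissues. With 1 library per treatment, depth limits the 6 lung-restricted genes outside lung, where counts under 3 cannot be told from 0, and no depth replaces replicates for the differences in lung.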
